A study of Mus musculus with 12 samples.

Results

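The genes described here are the TRIM genes of the mouse, taken as the rows of the count table whose symbol is Trim followed by a number and at most 1 letter from a to d, with at least 1 count in the 6 libraries compared. There were 37 such genes among 25919 rows. A further 5 rows of that form, Trim9, Trim17, Trim34b, Trim45 and Trim72, held 0 counts in these libraries, and TRIM genes with no row in the table are not analysed here. The table comes from a study of mouse liver in which polyadenylated RNA was sequenced in bulk from its 3' end. The tested samples are the 4 libraries labelled CD40, day 2, CD40 being a receptor of antigen-presenting cells, and they are set against the 2 libraries labelled Kupffer cells, day 0, Kupffer cells being the resident macrophages of the liver. All 6 carry the labels C57BL/6, liver and 7 weeks of age. The labels name no treatment, no event from which the days are counted, no sorting and no animal of origin, so the p-values below measure the spread between libraries, which may be technical. Label and day differ together in this comparison and cannot be told apart.

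TRIM proteins share a tripartite motif of a RING finger, 1 or more B-boxes and a coiled coil, followed by a variable end that binds the target. Most are ubiquitin ligases, and many members of the family restrict viruses or tune the signalling of nucleic acid sensors, some of them as genes induced by interferon. Others repress transcription on chromatin, bind the cytoskeleton or, with NHL repeats, bind RNA or other partners. In mice a tandem array on chromosome 7 holds the relatives of the primate retrovirus restriction factor TRIM5, including the rodent Trim12 and Trim30 genes.

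Total counts were 1182437, 725683, 2271228 and 1775691 in CD40 day 2 libraries a to d, and 1612435 and 688498 in Kupffer day 0 libraries a and b. One count was worth 0.455 to 1.42 CPM (counts scaled to a common library total after TMM adjustment) in CD40 day 2, and 0.574 and 1.39 CPM in Kupffer day 0. Cd40 itself was at 330 ± 72.6 CPM in CD40 day 2 (SD, n = 4) and 19.1 ± 1.41 CPM in Kupffer day 0 (n = 2). Of the 7 Kupffer cell markers 5 were lower and none higher, and they summed to 201 to 583 CPM in CD40 day 2 libraries, against 3026 and 3177 CPM in Kupffer day 0 libraries. The Kupffer libraries also held RNA of other liver cells. All 7 of 7 endothelial markers were lower in CD40 day 2, their sum being 174 to 451 CPM, against 11960 and 13160 CPM in Kupffer day 0, and no endothelial marker was at 0 in every library of a group. The stellate cell markers summed to 25.5 to 114 CPM, against 1311 and 1492 CPM in Kupffer day 0, with 5 of 5 tested lower and Col1a1 at 0 in CD40 day 2. The hepatocyte markers summed to 39.3 to 80.1 CPM, against 237 and 618 CPM, with 4 of 4 tested lower. The 6 monocyte markers were all higher, with sums of 13360 to 18940 CPM in CD40 day 2, against 1294 and 1438 CPM in Kupffer day 0. In bulk libraries fewer cells of a type and less RNA per cell cannot be told apart, and the part of these cell types in the TRIM values below was not tested.

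The 4 TRIM genes that rose in CD40 day 2, Trim30a, Trim30b, Trim30c and Trim30d, are neighbours on chromosome 7. The 9 that fell lie outside that array. They are the NHL-repeat genes Trim2, Trim3 and Trim32, the chromatin corepressor Trim24, the ligases Trim35, Trim56 and Trim65 of innate signalling, and Trim44 and Trim47. Of the 37 genes, 25 passed the filter on low counts and were tested. Calls are those of edgeR's quasi-likelihood test with Benjamini-Hochberg adjustment over all 9852 genes tested, at an adjusted p under 0.05. The 13 calls are 52% of the 25 genes tested, and 53.4% of all genes tested were called, so the family as a whole was called about as often as any gene. Calls in the higher direction made up 16% of the tested TRIM genes and 23.2% of all genes, and calls in the lower direction 36% and 30.2%. The libraries of the groups did not overlap in 17 of the 25 genes, 6 higher and 11 lower, against 66.6% of all genes, 29.7% higher and 36.9% lower. The median log2 fold change was -0.19 over the 25 genes and -0.10 over all genes tested. Trim2, Trim23, Trim24 and Trim47 reached the filter's level of 7.16 CPM in no CD40 day 2 library and passed through the Kupffer libraries alone. Without Kupffer day 0 a, 3 TRIM genes were called higher and 5 lower, and 3206 genes were called in all, against 5262 with all 6 libraries.

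**Figure D1:**
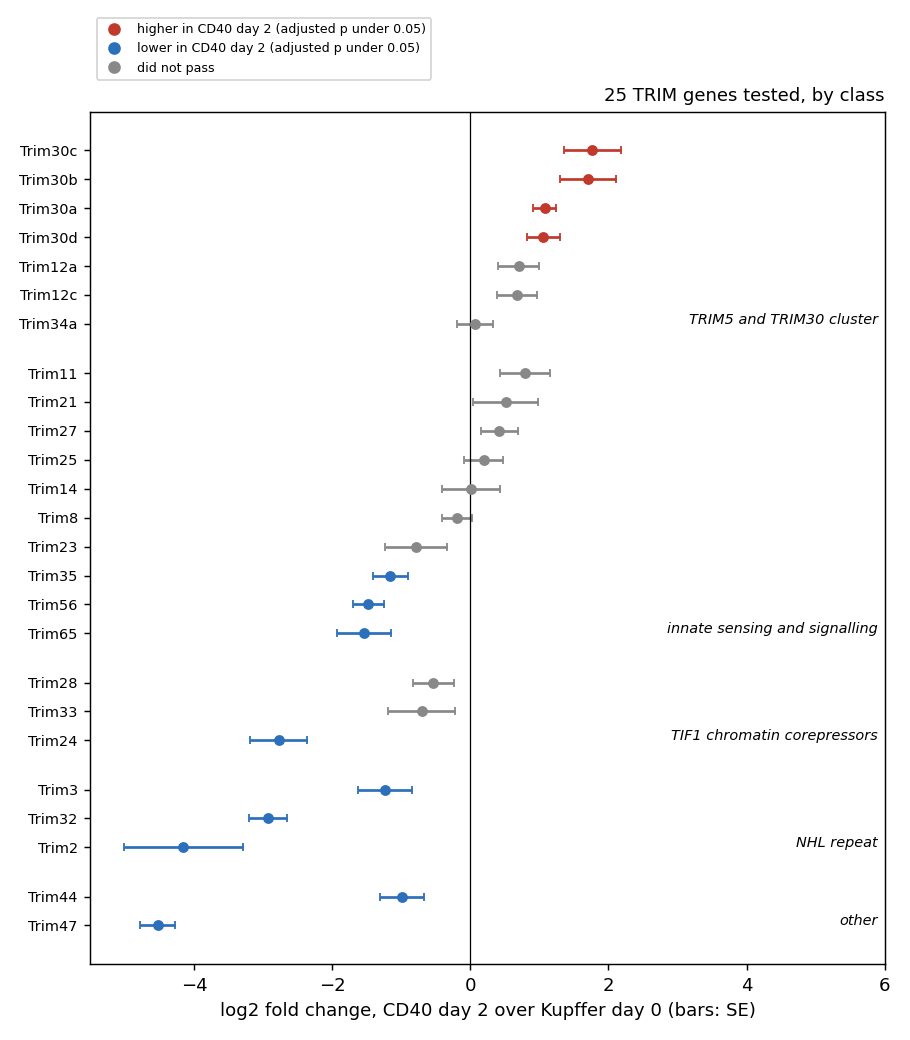
Log2 fold change (horizontal axis, CD40 day 2 over Kupffer day 0, bars of 1 SE) of the 25 TRIM genes tested, grouped by class. The 4 Trim30 genes lie to the right of 0 and passed the test, 9 genes of the other classes lie to the left of 0 and passed, and the 12 grey genes did not pass.

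Summed over all 37 genes, the TRIM level was 940, 1030, 843 and 837 CPM in CD40 day 2 libraries a to d, and 935 and 882 CPM in Kupffer day 0 libraries a and b, so the groups overlapped. The parts did not overlap. The 9 genes of the chromosome 7 array summed to 542 ± 27.4 CPM in CD40 day 2 and 275 ± 15.1 CPM in Kupffer day 0. The 28 TRIM genes elsewhere summed to 371 ± 65.4 CPM in CD40 day 2 and 634 ± 53.1 CPM in Kupffer day 0. Of these, the 9 genes called lower summed to 112 ± 29.5 CPM in CD40 day 2 and 397 ± 14.1 CPM in Kupffer day 0. Their difference is at least as large as that of the 28, so the sum restates those calls and shows no fall of the others. These sums are descriptions of the libraries and were not tested.

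**Figure D2:**
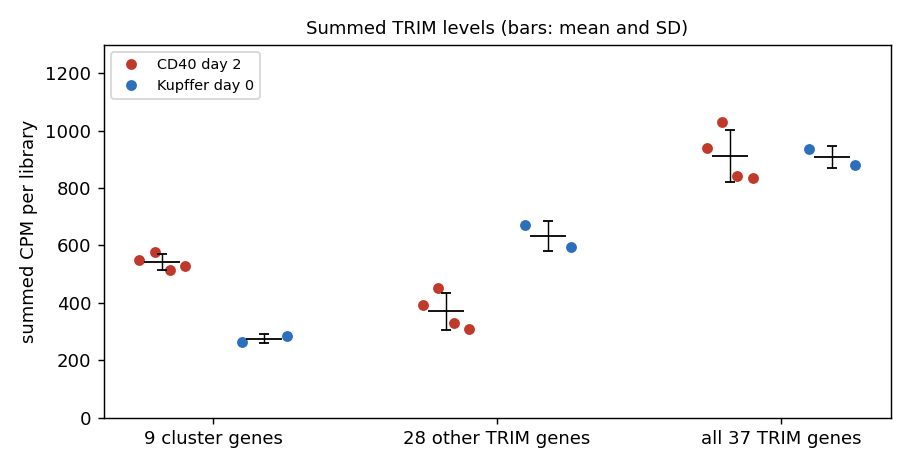
Summed CPM per library (vertical axis) of the 9 array genes, the 28 other TRIM genes and all 37, with CD40 day 2 libraries in red and Kupffer day 0 libraries in blue, and bars of mean and SD. The array sum is 513 to 577 CPM in CD40 day 2 and 264 to 286 CPM in Kupffer day 0, whereas the sums over all 37 genes overlap. Most of the array sum comes from the 4 Trim30 genes.

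Trim30a, an interferon-induced mouse gene whose protein is known to curb Toll-like receptor signalling by degrading TAB2 and TAB3, was at 257, 276, 237 and 270 CPM in CD40 day 2 libraries a to d, and at 113 and 135 CPM in Kupffer day 0. All 4 CD40 libraries stood above both Kupffer libraries, and the spread within CD40 day 2 was small. The difference was 2.11-fold (log2 fold change 1.08 ± 0.17 SE, edgeR adjusted p = 0.000525), and it was called under all 10 alternatives run on it (adjusted p 1.58e-06 to 0.0168). Trim30a lies on chromosome 7 from 104409025 to 104465193 (GRCm38), on the minus strand.

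The neighbouring copies moved in the same direction. Trim30d (chromosome 7, 104470014 to 104507849) was at 51.9, 62.2, 75.6 and 70.3 CPM in CD40 day 2, against 35.02 and 26.5 CPM in Kupffer day 0 (1.05 ± 0.24, edgeR adjusted p = 0.00428). Trim30b (104355382 to 104369884) was at 51.0, 36.8, 25.5 and 28 CPM, against 8.61 and 13.9 CPM in Kupffer day 0 (1.70 ± 0.40, edgeR adjusted p = 0.00536). In Trim30b, CD40 libraries a and b were the high ones, whereas in Trim30d they were the low ones. Trim30b lost its call without Kupffer day 0 a (0.11, with adjusted p of 3.5e-05 to 0.11 over the 10 alternatives). Trim30c (104382065 to 104400837) was at 27.3, 22.6, 41.0 and 36.9 CPM in CD40 day 2, against 12.6 and 4.18 CPM in Kupffer day 0 (1.77 ± 0.41, edgeR adjusted p = 0.00478). Its Kupffer values were 22 and 3 counts, and its log2 fold change was 2.95 without Kupffer day 0 a and 1.38 without Kupffer day 0 b.

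Close copies can exchange reads, and how multiply mapped reads were counted is not given in the sources used here. Among the 75-base windows within the last 500 bases of the annotated transcripts, 18.5% of those of Trim30a also occur in Trim30d and 15.4% of those of Trim30d in Trim30a. None of the windows of Trim30b or Trim30c occurred in another TRIM gene. With the 4 genes added up as a single gene, a choice made after the data were seen, the Trim30 sum was 387, 398, 379 and 405 CPM in CD40 day 2, and 169 and 180 CPM in Kupffer day 0. That sum was 2.25-fold higher in CD40 day 2 (log2 fold change 1.17 ± 0.15 SE, edgeR adjusted p = 0.000155). Counted in this way, 1 TRIM gene rose in place of 4. Trim30b supplied 13.2%, 9.25%, 6.72% and 6.91% of the Trim30 counts in CD40 day 2, and 5.1% and 7.75% in Kupffer day 0, while Trim30a supplied 62.5% to 69.4% in CD40 day 2, and 66.7% and 75.2% in Kupffer day 0.

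**Figure D3:**
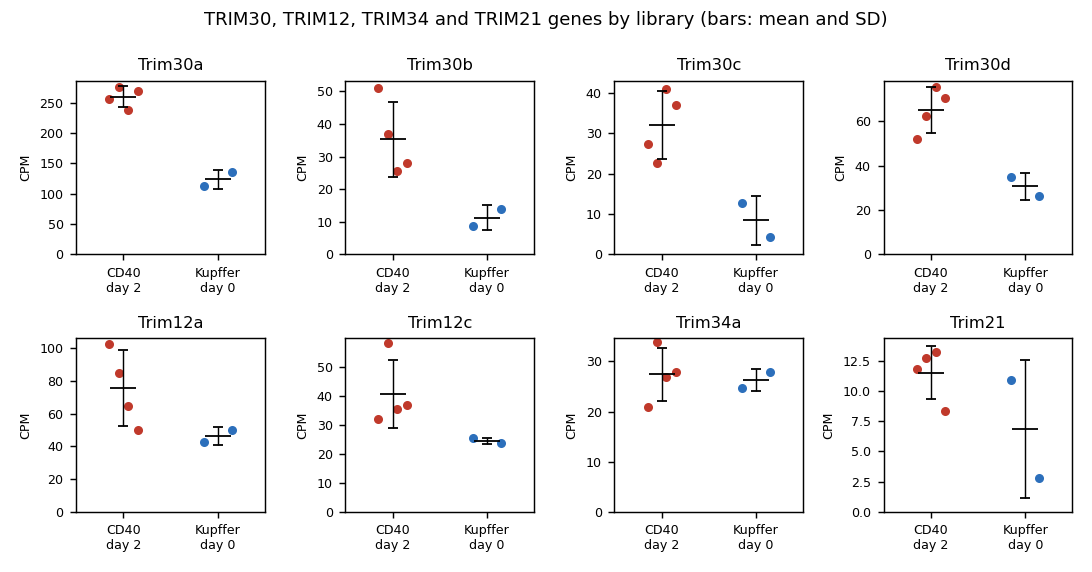
CPM per library (vertical axes, each from 0) of 4 Trim30 genes, Trim12a, Trim12c, Trim34a and Trim21 in CD40 day 2 (red) and Kupffer day 0 (blue), with bars of mean and SD. The groups do not overlap in the 4 Trim30 genes and in Trim12c, whose CD40 day 2 values begin at 31.9 CPM, and overlap in Trim12a, Trim34a and Trim21.

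Of the other array genes tested, none passed with edgeR or with DESeq2, while Trim12a and Trim12c were the 2 under 0.05 before adjustment. Trim12a, a rodent relative of TRIM5, was at 103, 84.9, 64.6 and 50.04 CPM in CD40 day 2, against 42.5 and 50.1 CPM in Kupffer day 0 (log2 fold change 0.70 ± 0.30 SE, edgeR adjusted p = 0.0729). Its CD40 values were spread over a range wider than the difference, and library d was at the level of the Kupffer libraries. The adjusted p of Trim12a was 0.0193 without library d and 0.0308 with all libraries and no filter on low counts (range over the alternatives 0.0193 to 0.344). Trim12c was at 31.9, 58.0, 35.5 and 36.9 CPM, against 25.3 and 23.7 CPM (0.68 ± 0.29, edgeR adjusted p = 0.0728). Trim34a was at 27.4 ± 5.33 CPM in CD40 day 2 and 26.3 ± 2.24 CPM in Kupffer day 0 (0.06 ± 0.26, edgeR adjusted p = 0.859). Trim34a shares 17.6% of its end windows with Trim34b, which is listed at 0 counts. Trim5 and Trim6 were not tested. Trim5 held 5, 2, 15 and 13 counts in CD40 day 2 and 4 and 1 counts in Kupffer day 0, a ratio of 3.03 after scaling for depth, with a 95% exact interval of 1.18 to 9.91 that covers counting error only. Of the Trim5 end windows 17.4% also occur in Trim12c, so their counts may be mixed in part. Trim6 held 4 counts in CD40 day 2 and 3 counts in Kupffer day 0. Along the chromosome the genes run in the order Trim6, Trim34a, Trim5, Trim12a, Trim12c, Trim30b, Trim30c, Trim30a and Trim30d, so the 4 genes called are the last 4 of 9.

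**Figure D4:**
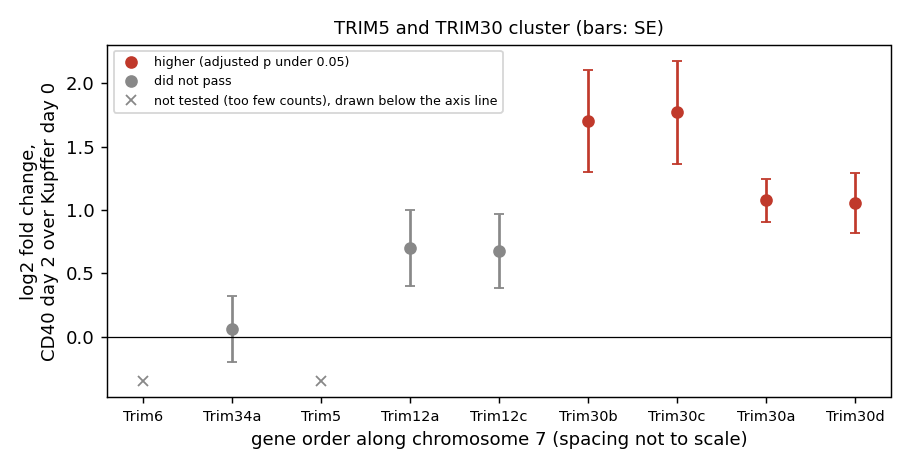
Log2 fold change (vertical axis, CD40 day 2 over Kupffer day 0, bars of 1 SE) of the array genes in their order on chromosome 7, with spacing not to scale. The 4 Trim30 genes at the right lie between 1.05 and 1.77 and passed the test, Trim34a, Trim12a and Trim12c lie between 0.06 and 0.70 and did not, and Trim6 and Trim5 (crosses) were not tested.

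The promoters of the array genes are shown because they carry copies of one interferon-type motif. RefSeq windows (GRCm38.p6, 250 bases before to 50 after each start) were found for 28 of the 37 genes. They were searched on both strands for GAAANNGAAA, the spaced pair of the interferon-stimulated response element, whose reverse strand reads TTTCNNTTTC. The motif stood in a window of 6 of the 9 array genes (Trim5, Trim12a, Trim12c, Trim30a, Trim30d and Trim34a), in windows of Trim2 and Trim21 outside the array, and in 3.99% of all 27025 genes with a window. In the sequences below, each from 5' to 3' on its gene's strand, capitals mark the motif, and the stretches cover chr7:104465195-104465254 (Trim30a, the outer of 2 starts), chr7:104507856-104507915 (Trim30d), chr7:104288121-104288180 (Trim5) and chr7:104353344-104353403 (Trim12c), all on the minus strand.
Trim30a: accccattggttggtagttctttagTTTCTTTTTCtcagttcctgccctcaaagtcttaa
Trim30d: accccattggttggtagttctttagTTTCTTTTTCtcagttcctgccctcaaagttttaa
Trim5: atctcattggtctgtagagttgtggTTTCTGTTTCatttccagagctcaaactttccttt
Trim12c: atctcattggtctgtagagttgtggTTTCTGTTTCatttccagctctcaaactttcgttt

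The Trim30a and Trim30d stretches share 59 of 60 bases, and their whole 300-base windows were 92.3% identical in a global alignment. The windows of Trim5 and Trim12c were 87.7% identical. Trim30c, which rose, has a like stretch at chr7:104400881-104400940 (minus strand) with 52 of 60 bases shared with Trim30a, given here with capitals at the bases that differ from Trim30a.
Trim30c: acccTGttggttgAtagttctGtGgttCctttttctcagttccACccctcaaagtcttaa

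The exact letters of the motif are not in the Trim30c window, which holds the gamma-activated motif TTCNNNGAA instead (in 9.55% of all genes with a window). For Trim30b the RefSeq window lies inside the gene as GENCODE draws it, and held neither motif. Trim34a and Trim21 carry the motif just after their starts, shown next for chr7:104244427-104244486 (Trim34a, plus strand) and chr7:102565453-102565512 (Trim21, minus strand, where 2 overlapping matches give 3 repeats).
Trim34a: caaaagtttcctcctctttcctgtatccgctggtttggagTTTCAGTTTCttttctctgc
Trim21: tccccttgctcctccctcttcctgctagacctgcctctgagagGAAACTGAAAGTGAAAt

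Thus the motif stood beside genes that rose (Trim30a, Trim30d) and beside genes that did not pass (Trim12a, Trim12c, Trim21, Trim34a). It also stood beside Trim5, which was not tested, and beside 1 start of Trim2, which fell. The other starts of Trim2 had no match. The motif is a match of letters, not a measured binding site.

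Among the TRIM genes of innate sensing and signalling, 3 of 10 tested fell, 0 rose and 7 did not pass with edgeR. Their median log2 fold change was -0.094. Of all genes tested 30.2% fell and 23.2% rose. The share that fell in this class was thus that of any gene, and whether 0 of 10 differs from 23.2% was not tested. The number that rose was also 0 at an unadjusted p under 0.05 and with DESeq2, and was 1 with no filter on low counts, where Trim11 passed (adjusted p = 0.0333). Trim56, reported to act on STING and cGAS, was at 23.7, 24.0, 21.4 and 16.7 CPM in CD40 day 2, against 60.3 and 57.1 CPM in Kupffer day 0. The CD40 values were all under 25 CPM and the groups were far apart, at 2.79-fold lower (log2 fold change -1.48 ± 0.22 SE, edgeR adjusted p = 0.000378; chromosome 5, 137105644 to 137116209). Trim35, reported to act on IRF7, was at 39.1, 42.4, 25.5 and 26.2 CPM, against 66.0 and 79.4 CPM in Kupffer day 0 (-1.16 ± 0.25, edgeR adjusted p = 0.0035; chromosome 14, 66297031 to 66311424). Both calls held under all 10 alternatives. Trim65, which ubiquitinates the RNA sensor MDA5, was at 3.64, 8.49, 4.55 and 4.77 CPM, against 14.4 and 15.3 CPM (-1.54 ± 0.39, edgeR adjusted p = 0.0083; chromosome 11, 116121846 to 116131128). Its CD40 values rest on 4 to 10 counts a library, and the call was lost without either Kupffer library and with DESeq2 (adjusted p 0.0518 to 0.0874, range over the alternatives 0.004 to 0.0874).

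The best known sensor ligases of the family did not pass. Trim25, the ligase of the RNA sensor RIG-I, was at 48.2, 36.8, 41.9 and 32.2 CPM in CD40 day 2, against 42.5 and 23.7 CPM in Kupffer day 0. The 2 Kupffer libraries lay farther apart than the ends of the CD40 range, and the log2 fold change of 0.19 ± 0.28 SE did not pass (edgeR adjusted p = 0.585) and was -0.09 without Kupffer day 0 b. Trim21, the cytosolic antibody receptor, was at 11.8, 12.7, 13.2 and 8.34 CPM, against 10.9 and 2.79 CPM (0.51 ± 0.47, edgeR adjusted p = 0.381). Its Kupffer libraries held 19 and 2 counts and lay far apart, and its log2 fold change was 2.00 without Kupffer day 0 a and 0.07 without Kupffer day 0 b, without passing in either case. Trim11, at 46.4 ± 19.2 against 24.9 ± 3.73 CPM, had groups that did not overlap but did not pass (0.79 ± 0.36, edgeR adjusted p = 0.0923). Trim8, known as an activator of NF-kappaB signalling, Trim14, an adaptor without a RING finger, Trim23, which carries a GTPase domain, and Trim27 had log2 fold changes of -0.19, 0.00, -0.79 and 0.42 and adjusted p of 0.477, 0.994, 0.161 and 0.216 by edgeR.

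Among genes listed as encoding sensing proteins modified by TRIM ligases, the RNA was more often called higher than lower. Of 16 tested genes of this list, 9 rose and 2 fell, or 56.2% and 12.5%, against 23.2% and 30.2% of all genes. The list was written with earlier results of these data known, so its shares describe the list and are no test. Ikbke, an interferon-inducing kinase, was at 105 ± 26.7 CPM in CD40 day 2 and 8.20 ± 0.22 CPM in Kupffer day 0 (log2 fold change 3.70 ± 0.35 SE, edgeR adjusted p = 1.85e-05). Ifih1, which encodes MDA5, was at 107 ± 15.4 CPM in CD40 day 2 and 32.2 ± 1.71 CPM in Kupffer day 0, and Tmem173, which encodes STING, at 268 ± 34.2 and 83.4 ± 31.8 CPM. The sensor genes Ifih1 and Tmem173 were higher in the libraries in which Trim65 and Trim56 were lower, and a link between them was not tested. Irf3 and Mavs fell, to 71.2 ± 9.11 and 15.4 ± 2.79 CPM in CD40 day 2, against 131 ± 26.2 and 30.8 ± 10.1 CPM in Kupffer day 0. Tab2, a target of Trim30a named after its value was seen, was at 27.3 ± 4.65 CPM in CD40 day 2 and 26.2 ± 3.56 CPM in Kupffer day 0 and did not pass (0.06 ± 0.26, edgeR adjusted p = 0.861). Only RNA was measured, so these values do not give the level of the TAB2 protein.

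Among ubiquitin enzymes known to work with TRIM ligases, 5 of 11 tested rose and 1 fell, or 45.5% and 9.09%, against 23.2% and 30.2% of all genes. These enzymes too were listed with earlier results of these data known, so their shares are no test. Ube2l6, the enzyme that also passes on ISG15, was at 296 ± 46.1 CPM in CD40 day 2 and 38.4 ± 8.78 CPM in Kupffer day 0 (log2 fold change 2.98 ± 0.25 SE, edgeR adjusted p = 8.7e-06). Ube2d3 was at 448 ± 32.9 and 282 ± 48.0 CPM, and Ube2l3 at 86.1 ± 7.50 and 53.6 ± 2.94 CPM, in CD40 day 2 and Kupffer day 0. Ube2d1, of the same family as Ube2d3, went the other way, at 54.7 ± 5.27 CPM in CD40 day 2 and 95.4 ± 8.83 CPM in Kupffer day 0 (-0.80 ± 0.18, edgeR adjusted p = 0.00383).

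The NHL-repeat genes Trim2, Trim3 and Trim32 were called lower, as were 30.2% of all genes tested. Trim2 was tested only because it passed the filter through the Kupffer libraries, and the call of Trim3 depended on the settings, so their number is no measure of the class. Trim32, a ligase mutated in a human limb-girdle muscular dystrophy, was at 10.01, 5.66, 5.92 and 6.55 CPM in CD40 day 2, against 52.8 and 54.3 CPM in Kupffer day 0. The 4 CD40 values were all at or under 10.01 CPM, and the difference was 7.61-fold (log2 fold change -2.93 ± 0.27 SE, edgeR adjusted p = 1.88e-05; chromosome 4, 65604986 to 65616238, within Astn2 on the other strand). Trim2, a neuronal ligase of neurofilament light chain, held 3, 0, 0 and 0 counts in CD40 day 2 and 18 and 9 counts in Kupffer day 0. All its CD40 counts came from library a, and the level was 20.8-fold lower with a 95% counting interval of 6.41 to 107 (edgeR adjusted p = 0.00264; chromosome 3, 84160439 to 84306877). The fitted log2 fold change of Trim2 was -4.16, and -6.98 without CD40 day 2 a and -3.53 without CD40 day 2 c. Trim3, first described in brain, was at 17.3, 18.4, 8.65 and 7.15 CPM in CD40 day 2, against 27.0 and 29.2 CPM in Kupffer day 0 (-1.24 ± 0.39, edgeR adjusted p = 0.0232; chromosome 7, 105604463 to 105633571). In Trim3 the CD40 libraries formed a higher pair, a and b, and a lower pair, c and d. The Trim3 call was lost without CD40 day 2 c, without either Kupffer library and with DESeq2 (adjusted p 0.0658 to 0.12, range over the alternatives 0.00319 to 0.12).

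Trim47, a ubiquitin ligase, had the largest fitted fall of the 25 TRIM genes in the fit with all 6 libraries. Trim47 was tested only because it passed the filter through the Kupffer libraries, so it was picked in part by its high Kupffer level. It was at 4.55, 4.24, 3.19 and 4.77 CPM in CD40 day 2, against 106 and 85.0 CPM in Kupffer day 0. The CD40 libraries held 5, 3, 7 and 8 counts, and the Kupffer libraries 184 and 61 counts, a difference of 23.1-fold (log2 fold change -4.53 ± 0.25 SE, edgeR adjusted p = 1.16e-06; chromosome 11, 116105752 to 116127210). The call held under the 9 alternatives in which Trim47 was tested. Its gene model overlaps that of Trim65 on the same strand, and 8.81% of its end windows also occur in Trim65, so their counts may be mixed in part. The fall of Trim47 and Trim32 went with the fall of the endothelial and Kupffer markers given above, whose part was not tested. Trim44, which lacks a RING finger and carries a deubiquitinase-type zinc finger, was at 27.3, 36.8, 18.7 and 16.1 CPM in CD40 day 2, against 50.5 and 40.4 CPM in Kupffer day 0 (-0.99 ± 0.32, edgeR adjusted p = 0.025; chromosome 2, 102300119 to 102407828). The highest CD40 value of Trim44 came close to the lower Kupffer value, and its call was lost without CD40 day 2 c, without either Kupffer library and with DESeq2 (adjusted p 0.0576 to 0.233, range over the alternatives 0.00398 to 0.233).

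**Figure D5:**
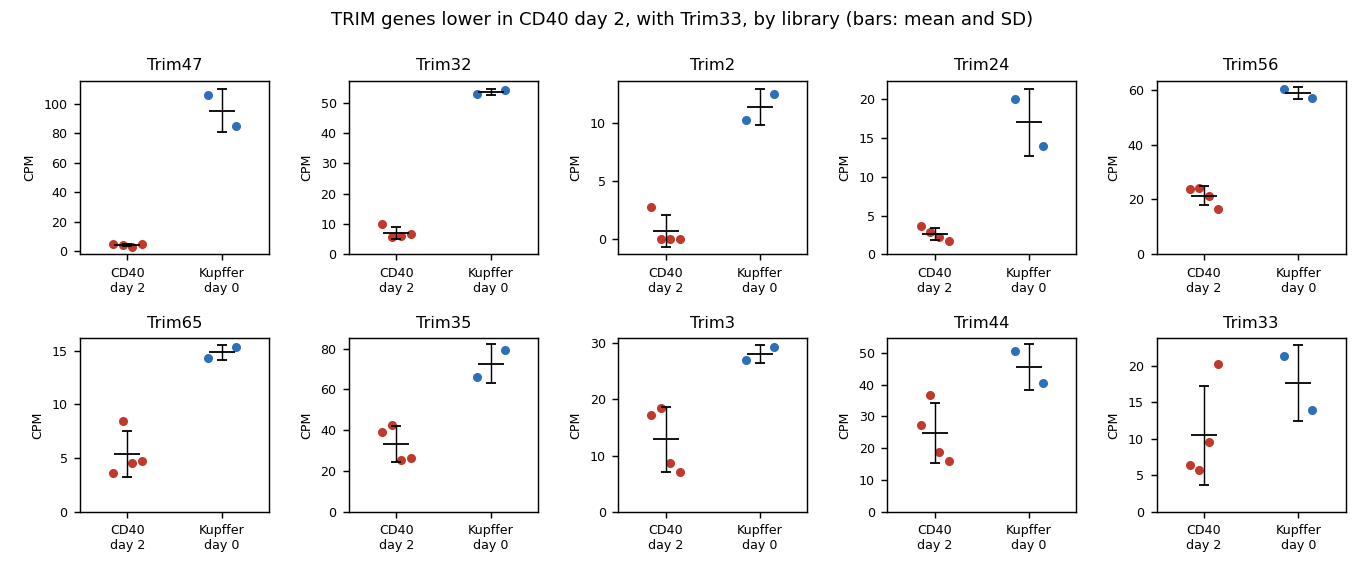
CPM per library (vertical axes) of the 9 TRIM genes called lower and of Trim33, in CD40 day 2 (red) and Kupffer day 0 (blue), with bars of mean and SD. In the 9 genes every CD40 day 2 library lies below both Kupffer day 0 libraries, whereas in Trim33 the CD40 day 2 library at 20.3 CPM lies between them.

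The TIF1 corepressors silence genes and retroelements through heterochromatin proteins and histone methylation, and Trim28 is the one recruited by KRAB zinc finger proteins. Trim24, a cofactor of nuclear receptors, was at 3.64, 2.83, 2.28 and 1.79 CPM in CD40 day 2, against 20.1 and 13.9 CPM in Kupffer day 0. It was tested only because it passed the filter through the Kupffer libraries. All CD40 values were under 4 CPM, from 2 to 5 counts a library, and the difference was 6.84-fold (log2 fold change -2.77 ± 0.41 SE, edgeR adjusted p = 0.00035; chromosome 6, 37870811 to 37966296). Trim28 was at 27.3, 34.0, 27.3 and 15.5 CPM, against 37.9 and 34.8 CPM in Kupffer day 0. Its groups did not overlap, but CD40 library b came close to the Kupffer values and the difference did not pass (-0.53 ± 0.30, edgeR adjusted p = 0.161). Trim33, which acts on Smad signalling, was at 6.37, 5.66, 9.56 and 20.3 CPM, against 21.2 and 13.9 CPM (-0.70 ± 0.48, edgeR adjusted p = 0.243). CD40 library d stood apart in Trim33, and without it the log2 fold change was -1.25 (adjusted p = 0.0267, range over the alternatives 0.0267 to 0.778). The 5 erythroid markers summed to 788 CPM in that library, against 69.3 to 282 CPM in the other 3, and their part in its Trim33 value was not tested. Trim66, the fourth gene of the class, held 1 count in all.

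Of 11 tested partners of these corepressors, 6 fell, 1 rose and 4 did not pass. The shares that fell and rose were 54.5% and 9.09%, against 30.2% and 23.2% of all genes. As the partners were listed with earlier results of these data known, the shares are no test. Cbx5, which encodes a heterochromatin protein, was at 24.2 ± 11.4 CPM in CD40 day 2 and 63.0 ± 1.45 CPM in Kupffer day 0 (log2 fold change -1.48 ± 0.32 SE, edgeR adjusted p = 0.00353). Smad4, a target of Trim33, was at 10.4 ± 2.86 and 23.8 ± 2.11 CPM in CD40 day 2 and Kupffer day 0, and the histone methyltransferase gene Ehmt1 at 38.1 ± 6.01 and 68.3 ± 17.9 CPM. Morc3, a chromatin ATPase, rose, with 113 ± 13.8 CPM in CD40 day 2 and 45.4 ± 0.83 CPM in Kupffer day 0 (1.31 ± 0.20, edgeR adjusted p = 0.000404).

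Some proteins of the TRIM family bear other gene names. Mefv, which encodes pyrin, the sensor mutated in familial Mediterranean fever, was at 53.2 ± 12.5 CPM in CD40 day 2 and 7.54 ± 4.76 CPM in Kupffer day 0 (log2 fold change 2.65 ± 0.38 SE, edgeR adjusted p = 0.000266). Mid2, a microtubule-binding ligase, held 0 counts in the 4 CD40 libraries and 30 counts in the Kupffer libraries, at least 23.1-fold lower when 3 counts over the group are taken as the floor (edgeR adjusted p = 0.000884). Without any CD40 count, Mid2 passed the filter on low counts through the Kupffer libraries alone. Pml, the organiser of nuclear bodies, was at 56.5 ± 12.1 CPM in CD40 day 2 and 73.0 ± 5.04 CPM in Kupffer day 0 and did not pass (-0.39 ± 0.23, edgeR adjusted p = 0.177).

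The 12 TRIM genes that were not tested held 1 to 63 counts over the 6 libraries. Trim36, which binds microtubules, held 3, 9, 10 and 12 counts in CD40 day 2 and 4 and 0 counts in Kupffer day 0, a ratio of 3.68 after scaling for depth (95% counting interval 1.31 to 14.3). Trim59, anchored in membranes, held 8, 5, 13 and 11 counts in CD40 day 2, and 25 and 1 counts in Kupffer day 0, where library a stood far above library b at 14.4 against 1.39 CPM. Trim13, an endoplasmic reticulum ligase, Trim16 and Trim41 held 25, 26 and 37 counts in CD40 day 2, and 5, 11 and 13 counts in Kupffer day 0, with intervals of the ratio that all include 1. Trim46, Trim62, Trim66 and Trim68 held 1 to 4 counts in CD40 day 2 and 0 to 4 counts in Kupffer day 0, too few to describe a difference. Trim69 held 2 counts in CD40 day 2, all in library b, and 8 counts in Kupffer day 0, all in library a.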

How the data were processed

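The data are raw counts per gene symbol, deposited by the authors in a single table. Per the labels' protocol, oligo-dT primers marked each sample and molecule, the samples were pooled, and fragments of the 3' ends were read over 75 bases of cDNA. GRCm38.p6 and DESeq2 1.22.2 are named in the submitters' processing notes, with no role stated. The sources used here do not give the aligner, the counter, or whether reads or molecules were counted. Replicate numbers are missing from the column names, so the letters a to d are names only. The other 6 columns were not read by gene because their values seem to have been sorted apart from the names.

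Counts of the 6 libraries were fitted with edgeR 4.0.16 in R 4.3.3 (TMM scaling, filterByExpr, which asks for about 10 counts at the median depth in 2 libraries, two-sided quasi-likelihood test), after a test on simulated data. The standard error is the log2 fold change over the square root of F. DESeq2 1.42.0, other scaling, other filters and leaving out libraries were the alternatives. Intervals of count ratios are exact binomial and cover counting error only. Positions are from GENCODE M21 (GRCm38) and promoters from RefSeq. The TRIM genes, their classes and the lists of related genes and markers were chosen with earlier results of these data known. By rule, values are given by library for TRIM genes past the threshold with no overlap and at least 10 CPM in the higher group, and for Trim21, Trim24, Trim25, Trim28, Trim30a and Trim33, and from each list of related genes at most the 4 with the lowest adjusted p and those that moved against the majority are named. Trim12a, Trim12c, Tab2 and the counts of genes not tested were added after their values were seen.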

Additional observations from a re-analysis of the deposited data

Results flagged for a closer look

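Among the 25 TRIM genes tested, Trim2 was the 1 whose highest CD40 day 2 library lay far from the other 3, with 2.73 CPM (3 counts) in library a and 0 in libraries b, c and d. Chance flags about 1 gene in 20 in groups of this size when values are normally spread, which such counts are not. A gene with counts in only 1 of these libraries is flagged whatever their number, so the flag carries no weight here. The 3 counts are near the limit of detection at this depth.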

How the results depend on the processing

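No paired analysis was possible because the columns of the table carry no replicate number. Among the recomputed TRIM fold changes, 219 kept their direction and their side of the threshold, 12 lost the call, 4 gained it and 6 changed sign. All 6 sign changes were in genes that did not pass: Trim14 with at least 10 counts in 4 libraries (-0.13), without CD40 day 2 b (-0.12) and without Kupffer day 0 a (-0.11, highest value with a library left out 0.11), Trim34a with at least 10 counts in 4 libraries (-0.065) and without Kupffer day 0 a (-0.041, highest 0.17), and Trim25 without Kupffer day 0 b (-0.094, highest 0.74). Without a filter on low counts 7 TRIM genes rose in place of 4, with 37 tested and Trim11, Trim12a and Trim36 added. With at least 10 counts in 4 libraries 5 fell in place of 9, since 20 genes were tested. With Trim30a to Trim30d summed, 1 rose. Leaving out 1 library gave 3 to 5 TRIM genes higher (5 without CD40 day 2 b, when Trim5 was tested and rose, and without CD40 day 2 d, when Trim12a rose), 5 to 10 lower and 3206 to 5514 genes called in all, and without a Kupffer library the lone one is assumed to vary like the others. DESeq2 called 4 higher and 6 lower. Low counts limit, among others, Trim2, Trim21, Trim23, Trim24, Trim65 and the 12 genes not tested, and Trim47 in CD40 day 2.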

Other observations

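The genes through which interferon could reach TRIM genes moved both ways. Of 12 tested genes of the interferon receptors and their kinases and transcription factors, 5 rose and 2 fell in CD40 day 2, or 41.7% and 16.7%, against 23.2% and 30.2% of all genes tested. Since this list was written with earlier results of these data known, its shares are no test. Irf7, a transcription factor that drives interferon genes, was at 1915 ± 368 CPM in CD40 day 2 and 280 ± 15.8 CPM in Kupffer day 0 (log2 fold change 2.77 ± 0.23 SE, edgeR adjusted p = 8.52e-06). Jak1, a kinase of both receptors, was at 229 ± 33.2 CPM in CD40 day 2 and 1040 ± 69.8 CPM in Kupffer day 0 (log2 fold change -2.18 ± 0.17 SE, edgeR adjusted p = 5.69e-06), and Ifnar2 at 104 ± 15.8 and 157 ± 15.1 CPM.

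The summed markers of B cells and neutrophils overlapped between the groups, and those of T and NK cells lay close. The T and NK cell markers summed to 210 to 243 CPM in CD40 day 2, against 203 and 206 CPM in Kupffer day 0. The B cell markers summed to 13.7 to 24.1 CPM, against 12.1 and 20.9 CPM, with Cd79a at 0 in CD40 day 2 and Ms4a1 at 0 in Kupffer day 0. The neutrophil markers summed to 705 to 1610 CPM in CD40 day 2, and to 701 and 2834 CPM in Kupffer day 0 a and b.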
